A study of Mus musculus with 32 samples.

Results

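Gene expression was compared between mouse embryonic stem (ES) cells differentiating in retinoic acid (RA) and the same cells differentiating in dimethyl sulfoxide (DMSO). All cells were of the E14TG2a line, here called E14, an established line. One set of cultures received 0.1 µM RA and the other 1% DMSO, and RNA was taken on days 2, 4 and 6. Each treatment and day was hybridised on 2 arrays of opposite dye, so 6 RA and 6 DMSO arrays were compared out of 32 samples in the series. On every array the second channel held untreated E14 cells, and each value is the log2 ratio of treated to untreated cells. The 6 arrays of cells in 3 mM hexamethylene bisacetamide (HMBA) entered the fit to estimate the spread and are not described, and 14 RNA interference arrays were not used. DMSO was itself a differentiation treatment in the study, so a gene that is higher in RA can have risen in RA or have fallen less than in DMSO. Ratios to untreated cells give no level, so the ES cell identity of the cultures cannot be read from them. The solvent of the RA, and whether the arrays of opposite dye held separate cultures, are not given in the sources used here. The p-values therefore measure the spread between arrays, which may be technical.

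RA is the active acid of vitamin A. It enters cells freely, is carried by cellular binding proteins, and binds retinoic acid receptors (RARs), which sit on DNA as pairs with retinoid X receptors (RXRs) and turn from repressors into activators of transcription when the ligand binds. Direct targets include genes of RA transport and breakdown, the receptor Rarb and the 3' members of the Hox clusters, which specify position along the body axis. In ES cells RA is a classical inducer of differentiation. Low doses in attached cultures can favour extraembryonic endoderm and mesenchymal fates, and treatment of embryoid bodies can favour neural fates.

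RAR and RXR pairs bind direct repeats of a 6-base half-site. Half-sites were searched as the letters AGGTCA, together with the variant forms that read AGTTCA, or that read instead GGGTCA, or finally that read GGTTCA, on both strands in promoters of 300 bases, which run from 250 bases before to 50 bases after the start site (RefSeq, build GRCm38.p6). Sequences of 3 promoters are shown because Rarb is the textbook RA target, while Stra8 and Crabp1 had the largest differences between RA and DMSO in the lists of RA targets and of retinoid transport. Capitals mark half-sites, and positions in brackets give the region and the strand on which the sequence reads 5' to 3'.
Rarb (chr14:16575427-16575726, minus strand): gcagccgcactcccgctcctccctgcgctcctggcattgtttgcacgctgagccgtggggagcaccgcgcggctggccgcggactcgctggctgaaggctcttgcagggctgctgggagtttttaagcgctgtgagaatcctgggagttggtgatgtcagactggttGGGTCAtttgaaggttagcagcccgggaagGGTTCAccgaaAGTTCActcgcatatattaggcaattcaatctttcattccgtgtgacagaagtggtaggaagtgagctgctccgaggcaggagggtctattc
Stra8 (chr6:34920698-34920997, plus strand): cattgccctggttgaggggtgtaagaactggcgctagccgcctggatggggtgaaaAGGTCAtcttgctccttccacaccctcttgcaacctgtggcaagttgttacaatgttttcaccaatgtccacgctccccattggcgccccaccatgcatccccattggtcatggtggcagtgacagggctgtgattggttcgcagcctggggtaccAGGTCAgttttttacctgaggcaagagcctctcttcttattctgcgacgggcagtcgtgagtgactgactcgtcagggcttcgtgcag
Crabp1 (chr9:54764498-54764797, plus strand): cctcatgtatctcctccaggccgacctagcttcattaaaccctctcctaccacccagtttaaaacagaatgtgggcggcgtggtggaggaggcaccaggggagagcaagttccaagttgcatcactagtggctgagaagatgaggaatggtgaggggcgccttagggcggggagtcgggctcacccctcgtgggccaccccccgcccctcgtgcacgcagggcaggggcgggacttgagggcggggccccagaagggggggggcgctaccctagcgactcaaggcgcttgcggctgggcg
The Rarb promoter held 3 half-sites, and GGTTCA at -53 and AGTTCA at -42 from the start site form a direct repeat with 5 bases between them. Stra8 held AGGTCA at -194 and at -38, too far apart to form such a repeat, and Crabp1 held none. A repeat with a spacing of 5 was present in the promoters of 3 of the 9400 tested genes matched to RefSeq (0.0319%), which are Rarb, Blvrb and Cfap45. None of these was called between RA and DMSO, and their probes differed by -0.39 ± 0.15 to 0.23 ± 0.17 (log2 ± standard error, SE). Of the 24 genes with the largest differences below, 17 were matched, and 0 of them held a repeat spaced by 1, 2 or 5 bases. The same was true of 21 matched genes of the retinoid, RA target and Hox lists that were higher in RA. A single half-site was common, at 39.5% of 11849 promoters of tested genes, and 10.2% held at least 2. These matches describe letters in a short window and say nothing about binding elsewhere.

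RA and DMSO separated widely. Between the treatments, averaged over the 3 days, 3781 of 16587 tested probes (22.8%) were called, which here means a Benjamini-Hochberg adjusted p under 0.05 in limma with the dye orientation as a term. RA was higher for 2048 probes (12.3%) and lower for 1733 (10.4%). This lean to higher values turned round with quantile normalization (1539 higher, 1713 lower) and without the Cy3 array of DMSO day 4 (1571 higher, 1789 lower, of 11199 probes tested). The differences of at least 1 on the log2 scale leaned to one side, with 307 higher and 151 lower. Without the dye term 1031 probes were called, 618 higher and 413 lower. Among 10861 probes with values on all 12 arrays, every RA array was above every DMSO array for 181 (1.67%) and below for 218 (2.01%). RA was above DMSO in all 6 pairs of the same day and dye for 1100 of these probes (10.1%) and below for 1237 (11.4%). Arrays held 15679 to 20019 values, except for the Cy5 array of DMSO day 4, which held 11257 and had the widest spread (SD 0.79 against 0.43 to 0.69). Without that array 3493 probes were called. The RA minus DMSO differences, averaged over days, correlated at r = 0.88 between the Cy3 and the Cy5 arrays over 10861 probes, while the matching values were 0.42, 0.54 and 0.75 for days 2, 4 and 6. These correlations are across probes, which are not independent replicates.

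In the list of retinoid transport and binding, 6 of 9 tested genes were higher (66.7%) and 0 lower in limma (1 lower at an unadjusted p under 0.05). Among the 11999 genes tested, 14.3% were higher and 9.38% lower. The median difference of the list was 0.44, against 0.02 for all genes. With quantile normalization 3 of the 9 were higher and 1 lower, and without day 6 or without the dye term 3 were higher. Members of this and the other lists were chosen with earlier results of these data known, so that choice may have fixed part of such shares. Crabp1, which encodes a cytoplasmic RA-binding protein, lay between 2.29 and 3.34 on the RA arrays (median 2.65) and between -0.63 and 1.23 on the DMSO arrays (median -0.50). Every RA array was above every DMSO array, and the difference was 2.65 ± 0.11 (adjusted p = 9.9e-12). It was 3.57 on day 2, 3.09 on day 4 and 1.28 on day 6, and the fall from day 2 to day 6 (-2.29 ± 0.28) was itself called (adjusted p = 0.00012). On day 6 both DMSO arrays lay above untreated cells, whereas the other 4 lay below.

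Crabp2, whose product delivers RA to its receptors in the nucleus, ranged from 1.60 to 3.46 in RA (median 2.59) and from 1.18 to 1.55 in DMSO (median 1.26, 11 arrays in all). The groups did not overlap, and the difference was 1.23 ± 0.19 (adjusted p = 0.00016). Fabp5, a fatty acid-binding protein that also binds RA, was higher by 0.65 ± 0.11. Smaller differences were called for Rlbp1, which binds retinaldehyde (0.46 ± 0.12), Ttr, a carrier of retinol-binding protein in plasma (0.44 ± 0.15), and Lrat, which esterifies retinol (0.37 ± 0.10). The Lrat difference came from day 6, at 1.79, with -0.57 on day 2 and -0.10 on day 4, and the mean of days 2 and 4 alone was -0.33. Likewise Ttr was -0.07, -0.13 and 1.51 on the 3 days and -0.08 without day 6. Calls for Lrat, Rlbp1 and Ttr were lost without the dye term (adjusted p = 0.68, 0.69 and 0.24). The remaining members were not called: Rbp7, Rbp2 and Stra6, the receptor for retinol-binding protein, lay between -0.36 and 0.03.

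**Figure D1:**
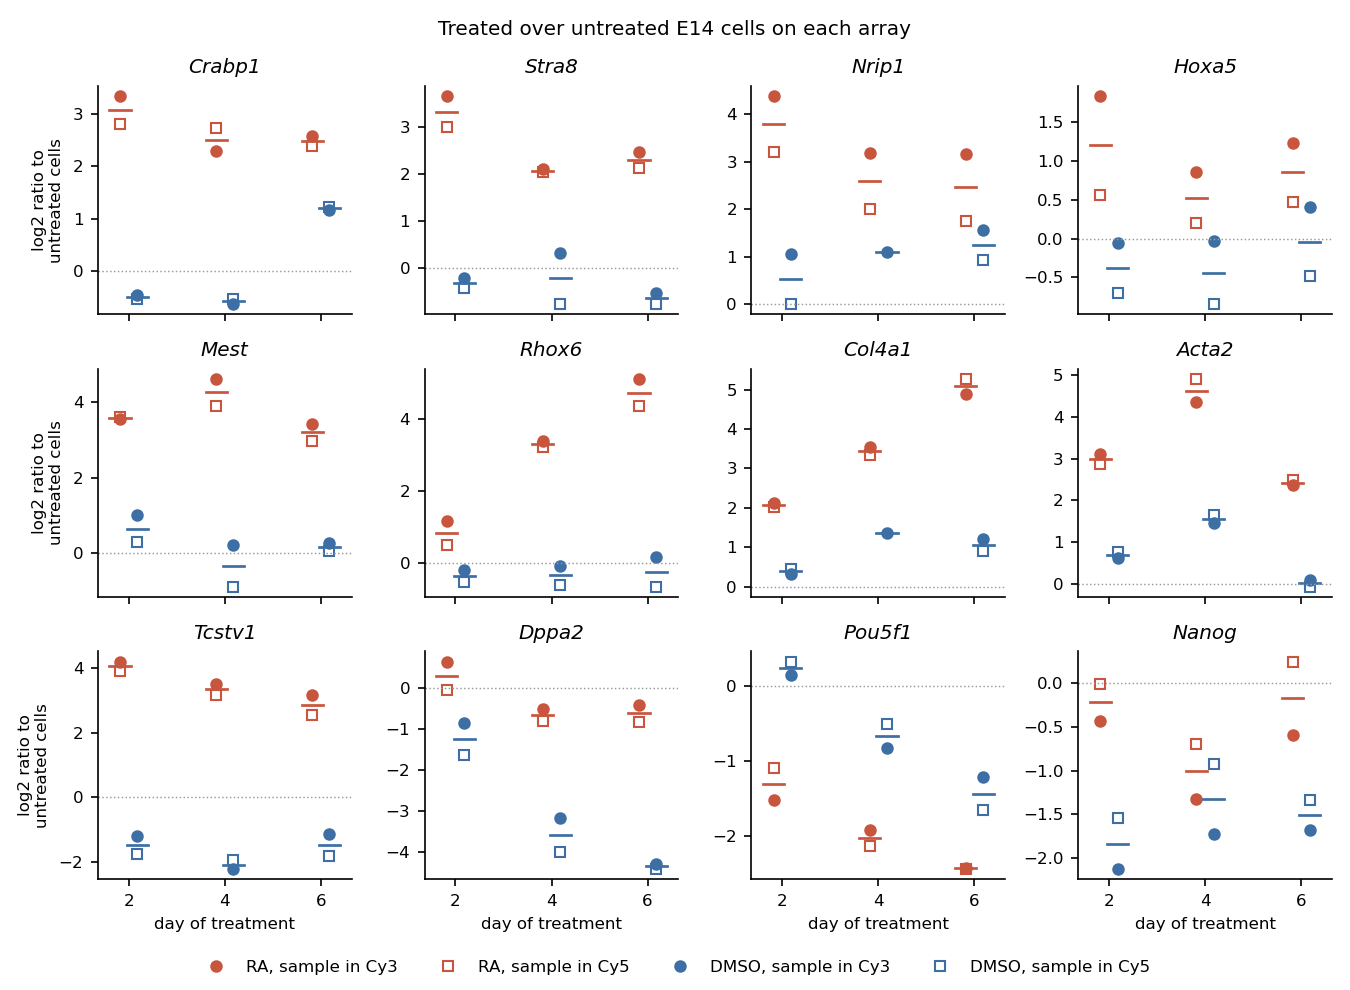
Log2 ratio of treated to untreated cells (vertical axis) by day of treatment (horizontal axis) for 12 genes. Each point is 1 array (filled circles, treated sample in Cy3; open squares, in Cy5), red for RA and blue for DMSO, and bars are the mean of the arrays of a treatment and day. The 6 RA points of Crabp1 lie between 2.29 and 3.34, above all DMSO points, whereas the RA points of Pou5f1 lie lower than those of DMSO on each day.

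Receptors and cofactors changed less uniformly, with 4 of 13 tested genes higher (30.8%, against 14.3% of all genes) and 1 lower (7.69%, against 9.38%). The largest difference was that of Nrip1, a ligand-dependent corepressor of nuclear receptors. It ranged from 1.75 to 4.37 on the RA arrays (median 3.17) and from 0.01 to 1.56 on 5 DMSO arrays (median 1.05), with no overlap, and differed by 2.16 ± 0.12 (adjusted p = 1.3e-09). Its difference shrank from 3.26 on day 2 to 2.01 on day 4 and 1.22 on day 6, a change of -2.04 ± 0.28 (adjusted p = 0.00047). Rxra, the heterodimer partner of the RARs, was higher by 1.10 ± 0.13 over 9 arrays, and the coactivator Ncoa3 by 0.97 ± 0.10. A second Ncoa3 probe gave 0.69 ± 0.10. The Rxra call was lost without the dye term (adjusted p = 0.058).

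The 3 RA receptor genes gave no single answer. Rarg was higher by 0.36 ± 0.11 (adjusted p = 0.02), but its 5 probes ranged from -0.16 to 0.63, and the call was lost without the dye term (adjusted p = 0.12). Rara was at -0.00 ± 0.15 by its most complete probe, while another probe, also measured on all 12 arrays, gave 1.50 ± 0.13 (adjusted p = 1.6e-07) and another gave 0.88 ± 0.17. Rarb was not called by either probe, at 0.23 ± 0.17 (adjusted p = 0.37) and -0.39 ± 0.15 (adjusted p = 0.071). By the first of these Rarb was above untreated cells in both treatments, at 1.58 in RA and 1.35 in DMSO, and the arrays overlapped over most of their range (0.64 to 2.59 against -0.03 to 2.84). The second probe lay at -0.35 in RA and 0.04 in DMSO, so the probes of Rarb disagree about the ratio to untreated cells as well. The orphan receptor Nr2c1 was lower by -0.34 ± 0.10, a call lost without the dye term (adjusted p = 0.37), and was at -0.11 without day 4. Rarg was at 0.19 without day 6 (adjusted p = 0.53).

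Enzymes of retinoid metabolism differed little, with a median of 0.15. Of 12 tested genes 3 were higher (25%, against 14.3% of all genes) and 1 lower (8.33%, against 9.38%). Rdh10, which oxidises retinol to retinaldehyde, was higher by 0.69 ± 0.13 and was the largest of these. Rdh12 (0.55 ± 0.16, 7 arrays) and the aldehyde dehydrogenase Aldh1a7 (0.52 ± 0.12) were also higher, and the retinol dehydrogenase Rdh14 was lower by -0.60 ± 0.10. Of these 4, only Rdh10 was called without the dye term, and the Aldh1a7 call also needed day 6 (0.36 without it, adjusted p = 0.25). Dhrs3, which returns retinaldehyde to retinol, was not called over the mean (0.21 ± 0.11, adjusted p = 0.2). By day, however, it was 1.28 on day 2 (adjusted p = 0.00022) and -0.60 and -0.07 later, and the change to day 6 of -1.35 ± 0.27 was called (adjusted p = 0.0096). Aldh1a2, an enzyme that makes RA, was at 0.27 and 0.47 on days 2 and 4 and at -0.89 on day 6 (adjusted p = 0.0032). The expression of the RA-degrading Cyp26 enzymes was not analysed here. Of these, the promoter of Cyp26a1 held a half-site repeat with a spacing of 5, on the opposite strand and 32 bases before the start site. Cyp26a1 was not among the tested genes. Of the 19 genes in the list of retinoid synthesis and breakdown, 4 had no probe and 3 had too few values.

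Among 24 tested genes known as RA targets outside the Hox clusters, 13 were higher (54.2%, against 14.3% of all genes). In limma 0 were lower (also 0 at an unadjusted p under 0.05), against 9.38% of all genes. The other 11 were not called, and the median of the list was 0.45. Stra8, which RA switches on when germ cells enter meiosis, ranged from 2.03 to 3.65 on the RA arrays (median 2.30) and from -0.76 to 0.33 on the DMSO arrays (median -0.46). The groups were apart on every day, and the difference was 2.95 ± 0.13 (adjusted p = 7.7e-12). Tshz1, a zinc finger factor, was higher by 1.74 ± 0.14, Krt8, a keratin of simple epithelia, by 1.65 ± 0.11, and Dab2, an endocytic adaptor, by 1.51 ± 0.13. A second probe of Dab2 gave 0.34 ± 0.15 (adjusted p = 0.13). The transmembrane ligand Efnb1 was higher by 1.49 ± 0.12 and the transglutaminase Tgm2 by 1.42 ± 0.13. Tshz1 and Efnb1 had their largest differences on day 2 (2.49 and 1.96) and smaller ones on day 6 (1.17 and 0.73), whereas Dab2 went from 0.53 on day 2 to 2.59 on day 6. The fit without the dye term called 8 of the 24 higher. By day, 9, 11 and 10 of the targets were higher on days 2, 4 and 6, against 4.52%, 5.53% and 7.88% of all genes. On those days 0, 1 and 2 of the targets were lower, against 2.27%, 5.07% and 3.79% of all genes. Without day 2 the mean had 1 target lower.

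The Hox genes that could be tested showed small differences. Of 39 genes in the list 21 were tested, and 5 were higher (23.8%, against 14.3% of all genes) and 1 was lower (4.76%, against 9.38%). Of the tested genes 15 were not called, and the median was 0.12. Of the untested genes, 7 had no probe and 11 had too few values. Testing needed a value in every group of treatment and day, so a Hox gene detected in RA alone would have been left out. Hoxa5 ranged from 0.20 to 1.84 in RA (median 0.71) and from -0.84 to 0.41 in DMSO (median -0.27), and differed by 1.15 ± 0.10 (adjusted p = 2.3e-07). The ranges overlapped, but RA was above DMSO in all 6 matched pairs. Hoxa3 was higher by 0.89 ± 0.15, Hoxb5 by 0.57 ± 0.13, Hoxa2 by 0.52 ± 0.14 and Hoxb7 by 0.44 ± 0.13. The Hoxb5 difference was 1.44 on day 2 and -0.02 on day 6, and the change was called (adjusted p = 0.014). Without day 2 neither Hoxb5 (0.14, adjusted p = 0.38) nor Hoxb7 (0.28, adjusted p = 0.17) was called. Hoxd3 went the other way on all 6 pairs, at -1.52 to -0.45 in RA against -0.16 to 0.60 in DMSO, a difference of -1.11 ± 0.12 (adjusted p = 1.5e-06). Without the dye term Hoxd3 was the one Hox gene still called, so all 5 of the higher calls were lost. Members 5' in the clusters were among those not called, with Hoxb13 at -0.01 ± 0.11, Hoxd10 at 0.07 ± 0.11 and Hoxa9 at -0.06 ± 0.13.

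**Figure D2:**
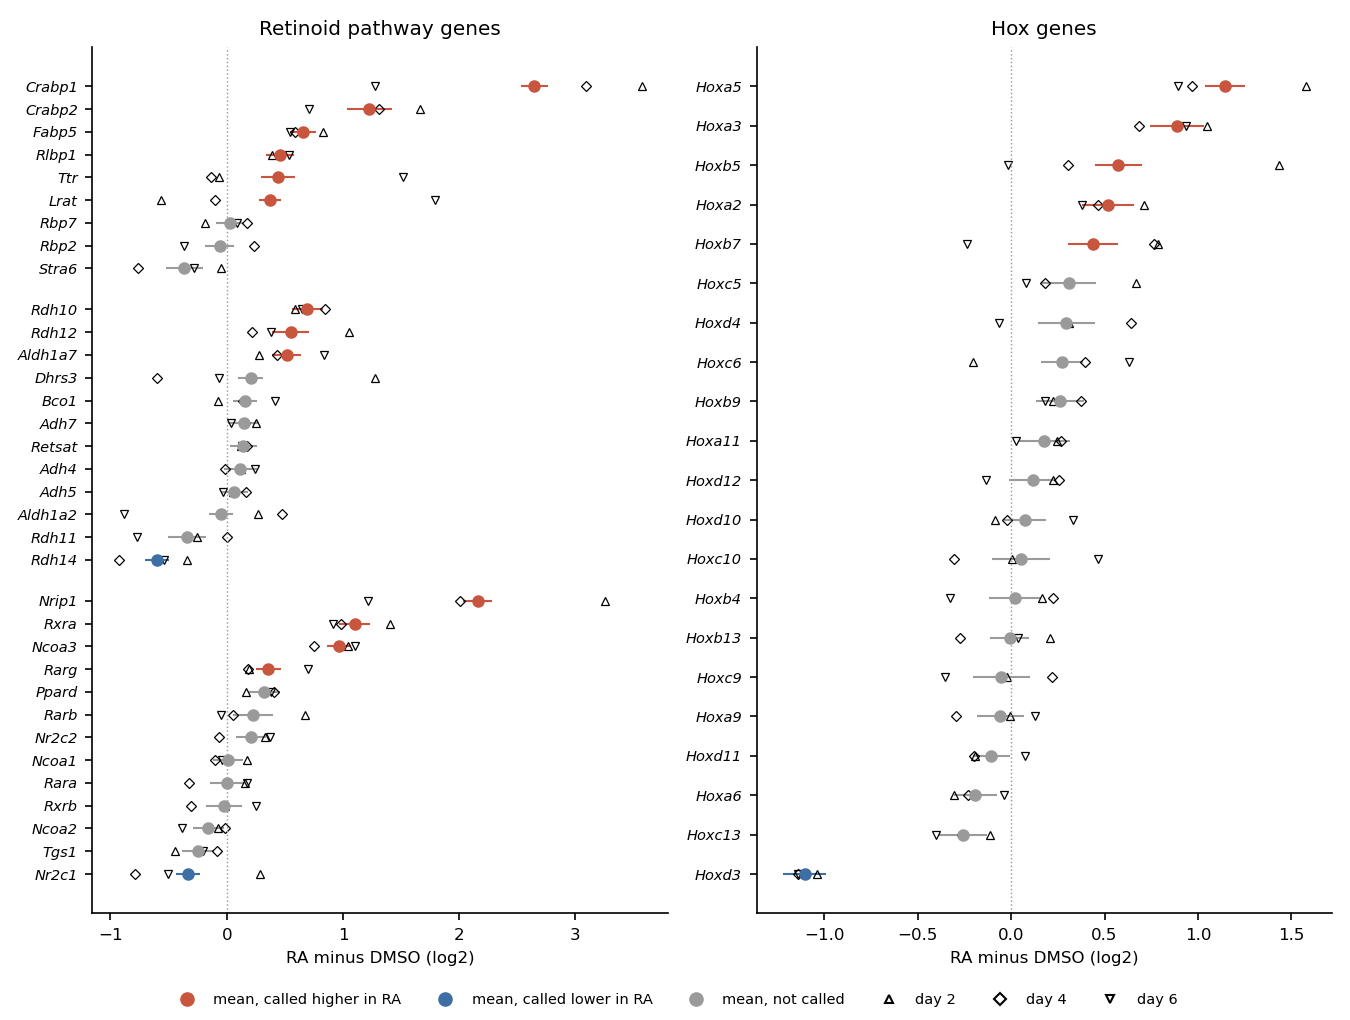
RA minus DMSO difference (log2, horizontal axis) of the tested retinoid pathway genes (left; transport, metabolism and receptors from top to bottom) and Hox genes (right). Large points are the mean over days with its SE, red where called higher, blue where called lower and grey where not called, and small open symbols are the single days. Crabp1 and Nrip1 are furthest to the right, with day 2 above day 6.

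Among called genes measured on all 12 arrays with 1 sign in all 6 pairs, the 12 largest differences in each direction lay, apart from Stra8, outside the retinoid lists. Tcstv1, a gene of cleavage-stage embryos and of rare ES cells that resemble them, lay between 2.55 and 4.19 in RA (median 3.34) and between -2.21 and -1.12 in DMSO (median -1.78). It was thus above untreated cells in one treatment and below them in the other, with a difference of 5.08 ± 0.12 (adjusted p = 4.7e-15). Mest, an imprinted gene expressed from the paternal allele, followed among these at 3.53 ± 0.13, from 2.98 to 4.62 in RA (median 3.58) against -0.90 to 0.99 in DMSO (median 0.23). The homeobox gene Rhox6 differed by 3.26 ± 0.11 and its neighbour Rhox9 by 2.67 ± 0.14. Both are known from placenta and germ line, and their probes may not separate near-identical copies of the family.

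Ooep, which encodes a protein of the oocyte, differed by 2.95 ± 0.10 although it was below untreated cells in both treatments. Its RA arrays ranged from -1.29 to -0.69 (median -1.08) and its DMSO arrays from -4.40 to -3.23 (median -4.19). Ooep therefore fell in both treatments, and further in DMSO. Cdkn1c, an imprinted inhibitor of cyclin-dependent kinases, was higher by 2.83 ± 0.11, with 1.57 to 3.26 in RA (median 2.75) and -0.44 to 0.12 in DMSO (median -0.36). The phosphodiesterase Pde11a (2.94 ± 0.10), the small membrane protein gene Smim7 (2.89 ± 0.11) and Wdr7, a WD-repeat gene (2.81 ± 0.10), were also higher with no overlap of their arrays. Hmga2, an architectural chromatin protein of embryonic cells, was higher by 2.77 ± 0.13, but its arrays overlapped (2.19 to 5.02 in RA, -0.45 to 2.53 in DMSO) because it rose above untreated cells in DMSO too. Dppa2 is given with the pluripotency genes below.

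On the other side the largest of these differences were those of Malat1, a nuclear long noncoding RNA, and Pim2, a serine/threonine kinase. Malat1 lay between -4.59 and -3.56 in RA (median -3.99) and between 0.32 and 0.94 in DMSO (median 0.57), a difference of -4.65 ± 0.12 (adjusted p = 1.4e-14). Its other probes gave -1.06 ± 0.16 (adjusted p = 9.4e-05) and -0.28 ± 0.12 (adjusted p = 0.096), so the size depends on the probe. Pim2 was below untreated cells in RA (-3.25 to -0.86, median -1.62) and above them in DMSO (1.56 to 2.77, median 1.78), with a difference of -4.0 ± 0.12 (adjusted p = 5e-14). Ache, which encodes acetylcholinesterase, differed by -3.24 ± 0.13 with 1 probe, while its other probes gave 0.24 ± 0.10 and -0.18 ± 0.16 and were not called.

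The decoy receptor gene Il13ra2 (-2.92 ± 0.12), Nts, which encodes the peptide neurotensin (-2.73 ± 0.12), and Fam53b (-2.26 ± 0.13) had all RA arrays below all DMSO arrays. In each of these the DMSO arrays lay above untreated cells, with medians of 0.38, 0.49 and 0.44. The RA and DMSO arrays were also apart for the calcium-binding protein gene S100b (-1.79 ± 0.14) and for Trim15 (-1.69 ± 0.13). Gstt2, a glutathione transferase (-1.79 ± 0.13), and Hmgn5, a nucleosome-binding protein (-1.68 ± 0.12), were lower in all 6 pairs with overlapping arrays. Hmgn5 was the one gene of the 24 whose call was lost without the dye term (adjusted p = 0.11). Dnmt3b and Otx2 complete the 12 and are described with the epiblast genes.

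Genes of the pluripotency network split between the treatments. Of 36 tested, 18 were higher in RA (50%, against 14.3% of all genes) and 6 lower (16.7%, against 9.38%). The other 12 were not called, and the median difference of the list was 0.34. Most of the 36 were below untreated cells in both treatments. The list median was -1.10 in RA and -1.41 in DMSO, both measured against the same untreated reference. Pou5f1, which encodes the core factor Oct4, was lower in RA in all 6 pairs. It lay between -2.45 and -1.09 in RA (median -2.04) and between -1.66 and 0.33 in DMSO (median -0.67), and differed by -1.31 ± 0.13 (adjusted p = 1.1e-06). In bulk RNA, fewer cells that express a gene and less RNA per cell cannot be told apart. Nanog, a homeobox factor of the same core, went the other way in all 6 pairs, from -1.32 to 0.25 in RA (median -0.51) against -2.12 to -0.92 in DMSO (median -1.61), a difference of 1.09 ± 0.10 (adjusted p = 2.4e-07). Its difference was 1.61 on day 2, 0.32 on day 4 (not called) and 1.33 on day 6. Sox2, the last of the core factors, fell in both treatments (medians -1.52 and -1.62) and differed by 0.25 ± 0.13 (adjusted p = 0.2). That value rested on day 4 (1.04, adjusted p = 0.0063), and it was -0.14 without that day and 0.44 without day 2 (adjusted p = 0.028). Leaving out the Cy3 array of DMSO day 4 gave Sox2 a difference of 0.39 (adjusted p = 0.023).

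The 6 pluripotency genes with the smallest p were all higher in RA. Dppa2, a chromatin factor of the early embryo, lay between -0.84 and 0.63 in RA (median -0.47) and between -4.41 and -0.85 in DMSO (median -3.59), a difference of 2.72 ± 0.11. Dppa5a, an RNA-binding protein, ranged from -1.68 to -0.60 in RA (median -1.30) and from -4.46 to -2.35 in DMSO (median -4.15), and differed by 2.46 ± 0.10. For both the groups were apart. The Oct4 target Fbxo15 (2.14 ± 0.10), the zinc finger gene Zfp42, also known as Rex1 (2.10 ± 0.12), and Klf4, a naive-state factor (1.84 ± 0.16), were likewise below untreated cells in both treatments and further below in DMSO. Tbx3, a T-box factor, was near or above untreated cells in RA (-0.06 to 1.22, median 0.40) and below in DMSO (-1.51 to -0.91, median -1.43), with a difference of 1.74 ± 0.11. The difference grew from day 2 to day 6 for Dppa2 (by 2.18 ± 0.27), Zfp42 (by 1.61 ± 0.28) and Dppa5a (by 1.08 ± 0.25). On days 2, 4 and 6, 12, 11 and 15 of the 36 were higher, against 4.52%, 5.53% and 7.88% of all genes. On the same days 4, 4 and 3 of the 36 were lower, against 2.27%, 5.07% and 3.79% of all genes. When the dye term was dropped, 10 were higher and 2 lower.

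**Figure D3:**
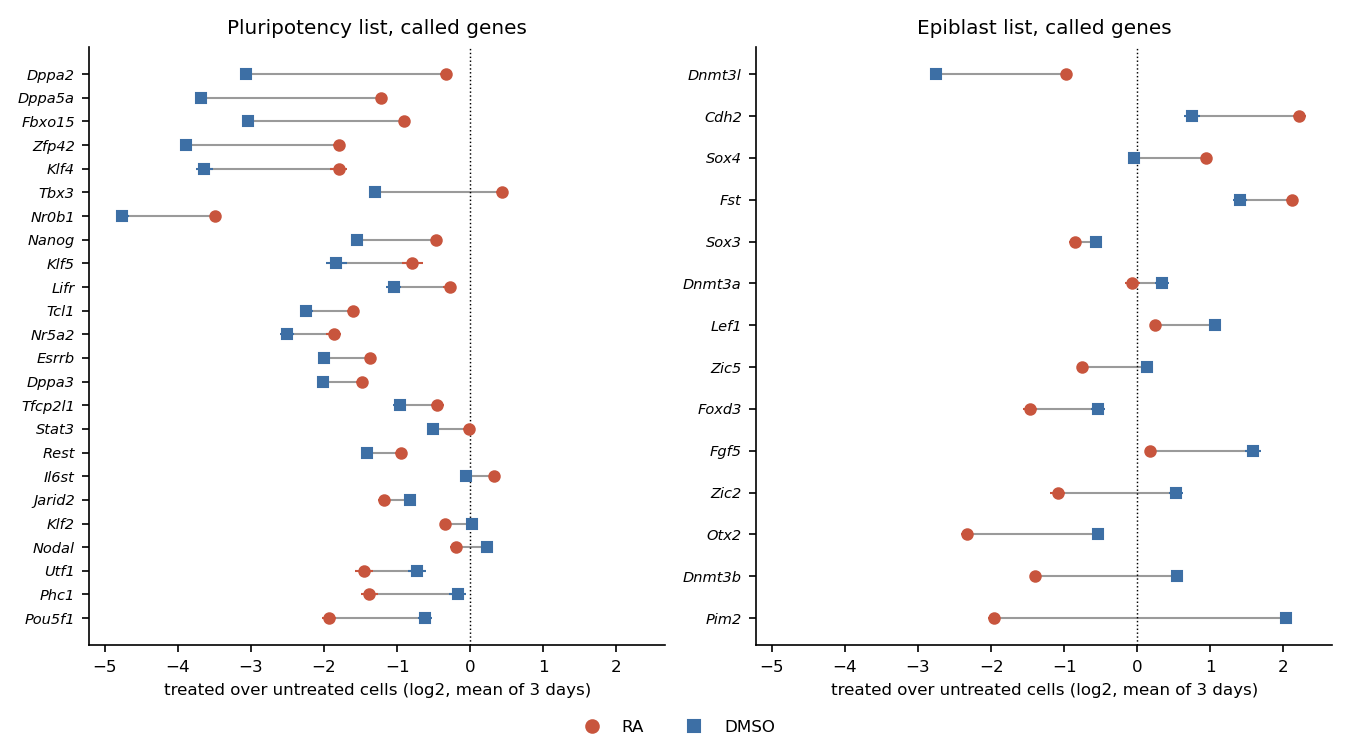
Mean log2 ratio of RA (red circles) and DMSO (blue squares) to untreated cells over the 3 days, with SE, for the called genes of the pluripotency list (left) and of the epiblast list (right). Lines join the treatments of a gene. Most pluripotency genes lie left of 0 in both treatments with RA nearer to 0, whereas Pou5f1 and Phc1 lie further left in RA, and Pim2, Dnmt3b, Otx2 and Zic2 are lower in RA than in DMSO.

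Genes of the epiblast and of the primed pluripotent state leaned the other way, with a median of -0.33. Of 19 tested, 4 were higher in RA (21.1%, against 14.3% of all genes) and 10 lower (52.6%, against 9.38%). Pim2, described above, led them. Otx2, a homeobox factor of the post-implantation epiblast, lay between -2.61 and -2.06 in RA (median -2.30) and between -1.50 and 0.21 in DMSO (median -0.39), and differed by -1.79 ± 0.12 (adjusted p = 2.2e-09). Dnmt3b, the de novo DNA methyltransferase of the epiblast, differed by -1.95 ± 0.10, and most on day 2 at -3.22 against -1.16 on day 6. Its RA arrays ranged from -2.25 to -0.82 (median -1.37) and its DMSO arrays from -0.95 to 2.29 (median 0.25), with overlap. Zic2, a zinc finger factor, was lower by -1.62 ± 0.14. In the opposite direction, Dnmt3l, a cofactor of the de novo methyltransferases, was higher by 1.79 ± 0.12, although below untreated cells in both treatments (-0.97 in RA, -2.76 in DMSO), and the cadherin gene Cdh2 was higher by 1.47 ± 0.14. Fgf5, a textbook marker of primed cells named here after its values were seen, was at -1.40 ± 0.14 over 10 arrays. Dropping the dye term left 3 of the 19 higher and 8 lower.

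Imprinted genes, which are expressed from 1 parental allele, were mostly higher in RA: 16 of 28 were higher (57.1%, against 14.3% of all genes). Of the others 3 were lower (10.7%, against 9.38%) and 9 were not called, and the median of the list was 0.47. H19, a maternally expressed noncoding RNA, ranged from 2.35 to 6.26 in RA (median 5.12) and from -0.41 to 2.06 in DMSO (median -0.09) over 11 arrays. Its difference of 3.95 ± 0.15 (adjusted p = 4.6e-12) was larger than those of Mest and Cdkn1c above. Phlda2, a maternally expressed growth regulator of placenta, was above untreated cells in RA (0.77 to 1.89, median 1.37) and mostly below in DMSO (-2.14 to 0.08, median -1.60), a difference of 2.62 ± 0.13. Grb10, an adaptor that restrains growth factor receptors, differed by 2.36 ± 0.11, and Dlk1, a Notch-family ligand, by 2.17 ± 0.11. For these 6 genes no RA array overlapped with a DMSO array. Both maternally expressed genes (H19, Cdkn1c, Phlda2) and paternally expressed genes (Mest, Dlk1) were among them. The 3 that were lower, named after their values were seen, were Snrpn (-0.97), Meg3 (-0.59) and Igf2 (-0.38), and Igf2 and H19 share an imprinted domain. Other probes of Meg3 gave -0.30 ± 0.11 and -0.31 ± 0.14 and were not called (adjusted p = 0.064 and 0.12). Dropping the dye term left 13 of the 28 higher and 1 lower.

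The list of trophectoderm and simple epithelium had a median of 1.13, with 5 of 25 genes not called. The 16 that were higher made up 64%, against 14.3% of all genes, and the 4 lower 16%, against 9.38%. Besides Rhox6 and Rhox9, Krt7, a keratin of trophoblast and other simple epithelia, lay between 1.49 and 3.31 in RA (median 2.60) and between -0.25 and 0.68 in DMSO (median -0.01), and differed by 2.32 ± 0.12 (adjusted p = 2e-10). Krt8 was above untreated cells in both treatments, with 2.30 to 3.49 in RA against 1.02 to 1.82 in DMSO. Krt19 differed by 1.60 ± 0.12 with overlapping arrays. Tfap2c, a transcription factor of trophoblast and germ cells, differed by 1.69 ± 0.12 with a median of 0.22 in RA and of -1.39 in DMSO. Of the trophoblast markers, Krt7, Esx1 (2.06 ± 0.15) and Plac1 (1.29 ± 0.14) were higher, whereas Cdx2, the defining trophectoderm factor, was at -0.09 ± 0.15 (adjusted p = 0.7). Dropping the dye term left 12 of the 25 higher and 1 lower.

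Germ line genes were higher for 14 of 24 members (58.3%, against 14.3% of all genes) and lower for 2 (8.33%, against 9.38%). Their median was 0.46. Dazl, an RNA-binding protein of germ cells, ranged from -0.77 to 1.93 in RA (median 0.40) and from -3.35 to -0.23 in DMSO (median -2.33) over 11 arrays, and differed by 2.82 ± 0.11. Sohlh2, a germ cell transcription factor, lay above untreated cells in RA (median 1.41) and below in DMSO (median -1.48), with a difference of 2.69 ± 0.12. Smaller differences were those of Rec8, a meiotic cohesin (1.26 ± 0.15), and the receptor Kit (0.91 ± 0.10). Sycp3, a protein of the synaptonemal complex, was lower by -1.53 ± 0.18, so the meiotic genes did not all go with Stra8. Dropping the dye term left 9 of the 24 higher and 1 lower. Of 6 tested genes of the cleavage-stage list 4 were higher (66.7%) and 0 lower in limma, also at an unadjusted p under 0.05. Next to Tcstv1 stood Usp17la, a deubiquitinase gene, at 4.86 ± 0.14, from 2.72 to 4.01 in RA (median 3.12) and from -1.90 to -1.10 in DMSO (median -1.40). Usp17lc differed by 2.40 ± 0.15 and Spz1 by 0.73 ± 0.12. Tcstv1 and the Usp17l genes belong to families of near-identical copies that a probe may not separate. Zscan4 genes were not analysed here.

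Many matrix genes were higher in RA. In the list of the basement membrane, the sheet laid down in quantity by parietal endoderm, 15 of 22 were higher (68.2%, against 14.3% of all genes). In limma 0 were lower (1 at an unadjusted p under 0.05), against 9.38% of all genes, and the list median was 0.65. Col4a1, a collagen IV chain, lay between 2.02 and 5.27 in RA (median 3.45) and between 0.32 and 1.36 on 5 DMSO arrays (median 0.90), a difference of 2.62 ± 0.12 (adjusted p = 5.6e-11). It went from 1.68 on day 2 to 4.04 on day 6. Its partner chain Col4a2 was higher by 1.74 ± 0.13, the laminin chain Lama1 by 2.29 ± 0.11, Col18a1 by 1.83 ± 0.11 and Sparc, a collagen-binding glycoprotein, by 1.15 ± 0.11. Lamb1 was higher by 1.05 ± 0.11, a call lost without the dye term (adjusted p = 0.24), which left 9 of the 22 higher.

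Interstitial matrix genes followed, with 13 of 24 higher (54.2%, against 14.3% of all genes) and a median of 0.55. In limma 0 were lower (2 at an unadjusted p under 0.05), against 9.38% of all genes. Tgfbi, a secreted protein induced by TGF-beta, ranged from 1.23 to 3.48 in RA (median 3.20) and from -0.53 to 0.06 in DMSO (median -0.19), and differed by 2.87 ± 0.11. The fibrillar collagens Col1a1 (2.61 ± 0.14), Col1a2 (1.76 ± 0.13) and Col3a1 (1.52 ± 0.12), the collagen cross-linking enzyme Loxl2 (1.76 ± 0.10) and the intermediate filament gene Vim (1.44 ± 0.11) were higher too. Col1a2 was at 2.31 on day 2 and 0.80 on day 6, whereas Col3a1 was at -0.09 on day 2 and 2.18 on day 6. The fit without the dye term called 9 of the 24 higher. Among contractile genes 18 of 31 were higher (58.1%, against 14.3% of all genes) and 2 lower (6.45%, against 9.38%). Without day 6 these counts were 10 and 1. Acta2, smooth muscle actin, lay between 2.36 and 4.92 in RA (median 2.99) and between -0.07 and 1.64 in DMSO (median 0.69), apart on all arrays, and differed by 2.61 ± 0.12. The smooth muscle gene Tagln (1.00 ± 0.13), the myosin light chain Myl9 (0.97 ± 0.11), Des (0.94 ± 0.13) and Tpm1 (0.82 ± 0.11) were higher, and the slow muscle troponin Tnnt1 was lower by -0.88 ± 0.10. The calls of Tpm1 and Tnnt1 were lost without the dye term (adjusted p = 0.2 and 0.17), which left 6 of the 31 higher and 0 lower, and Tpm1 was at 0.19 with quantile normalization.

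Extraembryonic endoderm genes were higher for 11 of 22 members (50%, against 14.3% of all genes) and lower for 2 (9.09%, against 9.38%). Their median was 0.36. Without day 6, or without the dye term, 7 were higher and 2 lower. Spink1, a trypsin inhibitor, differed by 1.70 ± 0.11 and went from 0.79 on day 2 to 2.98 on day 6. Foxa2, a forkhead factor of endoderm, was lower by -0.78 ± 0.11 by 1 probe and higher by 1.12 ± 0.10 by another, both called, and was at 0.17 with its probes averaged, so no direction is given for it. Defining markers of the cell types gave a mixed picture. Of 6 extraembryonic endoderm markers 4 were tested: Gata4 (0.63 ± 0.13) and Dab2 were higher, Sox7 (0.11 ± 0.16) was not called, and Foxa2 has the conflicting probes. Of the 5 markers of parietal endoderm 4 were higher (0.18 to 2.62). Of 4 visceral endoderm markers 2 were higher (0.07 to 0.71), and Afp was at 0.18 ± 0.15. These 2 were Amn and Ttr, and the Ttr call was lost without day 6 or without the dye term. Of 7 smooth muscle or fibroblast markers, which would also mark feeder fibroblasts, 5 were higher (-0.02 to 2.61), and Thy1 was at -0.02 ± 0.12. Of 5 cardiac markers 2 were higher (-0.30 to 0.94). Whether shares of such cells differed between the cultures was not tested.

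**Figure D4:**
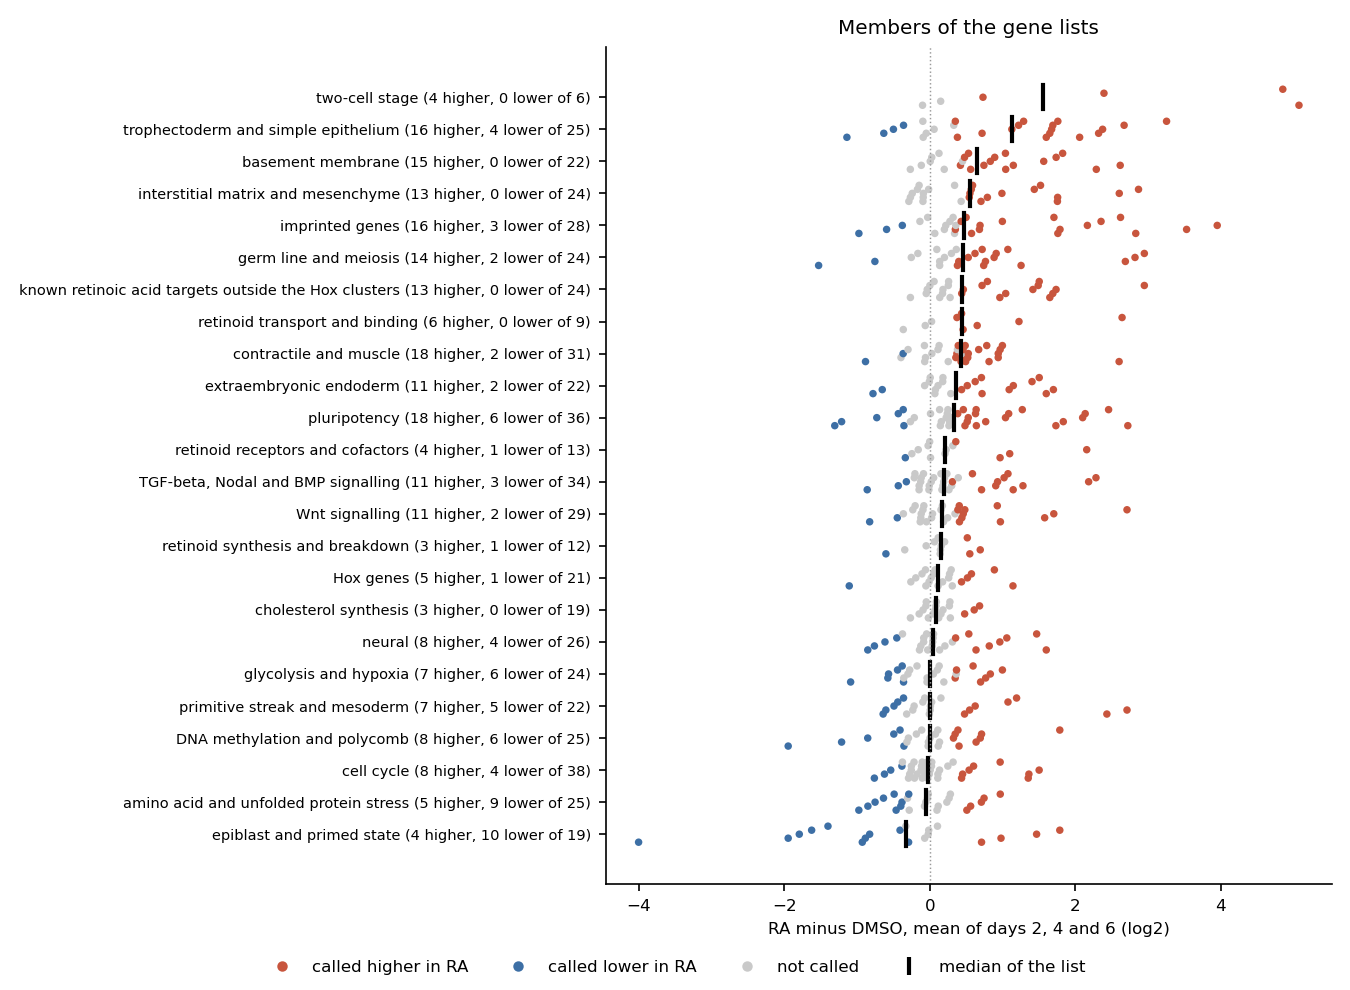
RA minus DMSO difference (log2, mean of days 2, 4 and 6, horizontal axis) of each tested member of 24 gene lists, ordered by the list median (black bars). Red points were called higher in RA, blue points lower, and grey points were not called. The lists of trophectoderm, basement membrane, interstitial matrix and imprinted genes lie to the right of 0 (medians 0.47 to 1.13), the list of the cleavage stage has 6 genes and a median of 1.56, and the epiblast list has the lowest median, -0.33.

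Neural and mesodermal genes did not lean one way. Of 26 neural genes 8 were higher (30.8%, against 14.3% of all genes) and 4 lower (15.4%, against 9.38%), with a median of 0.04. These counts were 4 and 3 without day 4, and 3 and 3 without the dye term. Dpysl3, a growth cone protein, was higher by 1.60 ± 0.12 and Gap43, another growth cone protein, by 1.47 ± 0.12. The homeobox gene Irx3 was higher by 1.06 ± 0.13. Gbx2, a homeobox gene of the hindbrain border and of ES cells, was at 1.92 and 2.20 on days 2 and 4 and at -1.23 on day 6. In contrast Stmn2, a microtubule regulator of neurons, was lower by -0.85 ± 0.10 and the sensory neuron factor Pou4f1 by -0.76 ± 0.10. A second Pou4f1 probe, also measured on all 12 arrays, gave 0.06 ± 0.14 and was not called (adjusted p = 0.78). Neither Sox1 (-0.08 ± 0.16) nor Pax6 (0.21 ± 0.11), the defining factors of neural progenitors, was called, and Nes was at -0.37 ± 0.15. Tubb3 was higher by 0.82 ± 0.16 (adjusted p = 0.0011), so of the 4 tested neural markers 1 was higher and 0 were lower. Calls of Gbx2 and Pou4f1 were lost without the dye term (adjusted p = 0.49 and 0.095).

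In the primitive streak and mesoderm list 7 of 22 were higher (31.8%, against 14.3% of all genes) and 5 lower (22.7%, against 9.38%). The list median was 0.00, and the counts were 4 and 2 without day 6 or without the dye term. Twist1, a factor of mesenchyme, lay between 1.32 and 3.55 in RA (median 3.11) and between -0.12 and 0.78 in DMSO (median 0.34), and differed by 2.44 ± 0.11. Dkk1, a secreted Wnt antagonist, differed by 2.71 ± 0.14 over 10 arrays and most on day 4, at 4.22. The VEGF receptor genes were split, with Flt1 higher by 1.19 ± 0.11 and Kdr, a marker of early mesoderm, lower by -0.64 ± 0.12. The ligand Bmp4 was higher by 1.08 ± 0.14 and the homeobox factor Lhx1 lower by -0.60 ± 0.12. Lhx1 was at -0.28 without day 6 and no longer called (adjusted p = 0.36). Mesodermal Pdgfra was at -0.01 ± 0.12, so of the 2 tested markers of mesoderm 0 were higher and 1 was lower.

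Genes of the TGF-beta, Nodal and BMP pathways were higher for 11 of 34 members (32.4%, against 14.3% of all genes). They were lower for 3 (8.82%, against 9.38%), with a median of 0.19 (7 higher without the dye term). Msx2, a homeobox target of BMP, was higher by 2.29 ± 0.15, and Id2, an inhibitor of basic helix-loop-helix factors and a BMP target, by 2.19 ± 0.12. Id3, another BMP target, was higher by 0.93 ± 0.11, of which day 4 held most (2.13, against 0.29 and 0.38), and without that day it was at 0.33 (adjusted p = 0.11). The ligand Tgfb2 (1.15 ± 0.13), the receptor Bmpr2 (1.28 ± 0.14) and the mediator Smad2 (0.91 ± 0.11) were higher as well. Bmpr2 had a second probe at 0.14 ± 0.10 that was not called, and its call was lost without the dye term (adjusted p = 0.083). Of 29 Wnt pathway genes 11 were higher (37.9%, against 14.3% of all genes) and 2 lower (6.9%, against 9.38%), with a median of 0.17. Only 5 were higher with quantile normalization, 6 with arrays scaled to the same spread, 7 without day 2 and 4 without the dye term. Next to Dkk1 stood Wnt6 (1.71 ± 0.17), the Wnt acyltransferase Porcn (1.58 ± 0.11) and the antagonists Sfrp5 (0.97 ± 0.12) and Dkk3 (0.93 ± 0.10), while the nuclear effector Lef1 was lower by -0.83 ± 0.10. The Dkk3 call was lost without the dye term (adjusted p = 0.085). Agonists and antagonists were thus both among the higher genes.

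The single days differed in how many probes were called. On day 2, 1095 probes (6.6%) were called, 676 higher (4.08%) and 419 lower (2.53%). Day 4 had 1711 (10.3%), 784 higher (4.73%) and 927 lower (5.59%), and day 6 had 1776 (10.7%), 1113 higher (6.71%) and 663 lower (4%). These counts were 193, 250 and 283 without the dye term. They also moved with single arrays: without the Cy3 or the Cy5 array of DMSO day 2, 479 and 550 probes were called on day 2, and without the Cy5 array of RA day 2 2057 were. On day 4 the count was 985 and 1069 without either RA day 4 array and 2574 without the Cy5 array of RA day 2. On day 6 it was 836 and 799 without the RA day 6 arrays, 812 and 770 without the DMSO day 6 arrays, and 2730 and 2769 without the RA day 2 arrays. Which day had most calls thus changed with single arrays. Over all days the count stayed between 2936 and 5384 when any 1 array was left out.

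The difference between treatments changed from day 2 to day 6 for 326 probes (1.97%), 162 upward (0.977%) and 164 downward (0.989%), or for 1.19% and 1.14% of genes. Among called genes with values on all 12 arrays, Rhox6 changed most, from 1.19 on day 2 to 3.63 on day 4 and 4.96 on day 6 (change 3.77 ± 0.26, adjusted p = 4.6e-07). In RA its arrays stood at 0.51 to 5.10, while no DMSO array passed 0.18. Rhox9 (3.74 ± 0.34), Lama1 (3.22 ± 0.28), the fatty acid-binding protein gene Fabp3 (3.20 ± 0.24) and Sct, which encodes secretin (3.11 ± 0.29), followed. Fabp3 and Sct showed little on day 2 (-0.33 and -0.02) and more on day 6 (2.87 and 3.08). Of these genes Gbp2b, an interferon-induced GTPase, went down most (-3.03 ± 0.27), from -0.06 to -3.09. Gbx2, measured on 11 arrays, went down by slightly more (-3.15 ± 0.24). Sp5, a Wnt target (-2.77 ± 0.33), Lefty1, an antagonist of Nodal (-2.64 ± 0.31), Sprr2b, an epithelial envelope protein (-2.63 ± 0.38), and the kinase gene Nuak1 (-2.55 ± 0.32) also went down. Sp5 turned from 1.35 on day 2 to -1.42 on day 6, and Lefty1 from 2.12 to -0.51, whereas Nuak1 stayed higher in RA throughout (3.41 to 0.85). For this change 17 probes were called without the dye term, and of the 10 named genes Rhox6, Rhox9, Lama1, Sct and Lefty1 were still called. The count was 769 without the Cy3 array of RA day 2, 187 without either RA day 6 array, 179 and 186 without the DMSO day 2 arrays, and 169 and 170 without the DMSO day 6 arrays.

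Day 4 stood apart from the mean of days 2 and 6 for 78 probes (0.47%), 35 upward (0.211%) and 43 downward (0.259%), or 0.233% and 0.308% of genes. Among genes with values on all 12 arrays, the difference was greater on day 4 for Fn1, which encodes fibronectin (2.05 ± 0.39), Id2 (1.80 ± 0.25), Id3 (1.80 ± 0.22), Mest (1.62 ± 0.28) and Vim (1.59 ± 0.24). Larger departures were called for Dkk1 (2.27) on 10 arrays and Chac1 (-2.18) on 10. A second Fn1 probe gave a mean over days of -0.09 ± 0.12, against 1.12 for the first. RA minus DMSO was lower on day 4 for Sfn, an epithelial 14-3-3 protein (-1.89 ± 0.26), and Smyd1, a muscle methyltransferase (-1.88 ± 0.27). The same held for Trib3 (-1.75 ± 0.32) and Asns (-1.69 ± 0.30), both induced by amino acid shortage, and the angiogenic factor Vegfa (-1.62 ± 0.24). On day 4 itself RA lay below DMSO, at -1.35 for Sfn, -1.31 for Smyd1, -1.92 for Trib3, -1.41 for Asns and -0.38 for Vegfa. Trib3 reached 2.15 on a DMSO array and no higher than -0.32 on an RA array. This is the day with the sparse DMSO Cy5 array: without it 32 probes were called, and Fn1 (adjusted p = 0.1), Mest (0.12), Trib3 (0.15) and Asns (0.12) were not. Without the dye term 1 probe was called, and it belonged to none of the 10 genes. Leaving out the Cy5 array of RA day 2 gave 304 calls, and leaving out any other array but the Cy3 arrays of RA day 2 and DMSO day 4 gave 30 to 42.

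**Figure D5:**
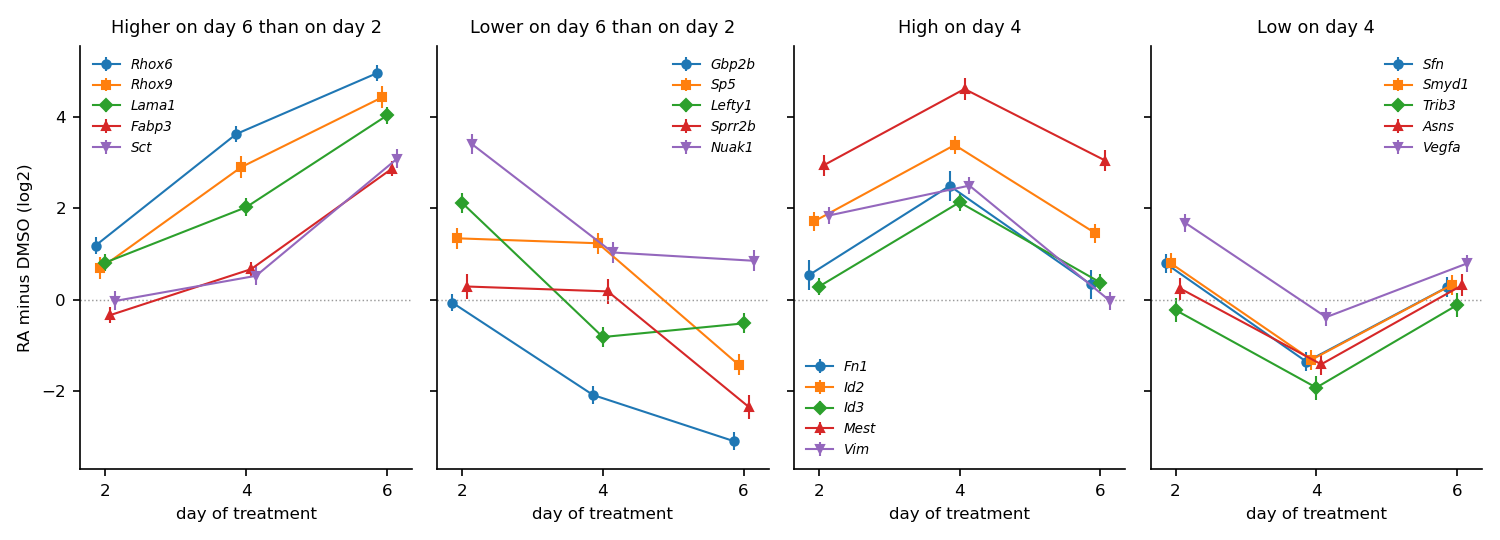
RA minus DMSO difference (log2, vertical axis) on days 2, 4 and 6 (horizontal axis) for 20 genes, with SE, that had the largest called changes over days among those with values on all 12 arrays. From left to right are the genes that went up from day 2 to day 6, those that went down, and those that were high or low on day 4. Rhox6 and Rhox9 climb to 4.96 and 4.43 on day 6, and Mest peaks at 4.61 on day 4.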

How the data were processed

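The deposited table holds 1 log2 ratio per probe and array, which the authors turned to treated over untreated cells whatever the dye, per the labels. No label or header names the base of the logarithm, and base 2 was assumed. Per the labels' protocols, total RNA was made into aminoallyl cDNA from oligo-dT and coupled to Cy dyes. Of 21106 probes, 16587 had a value in each of the 9 groups of treatment and day and were tested with limma 3.58.1 (lmFit and eBayes, R 4.3.3) on 18 arrays, with dye orientation as a term and Benjamini-Hochberg adjustment over all probes. The fit was tested on simulated data. The replicate number is the dye orientation, and arrays of the same number deviated together in 15 of 15 pairs of groups (r = 0.49 to 0.91), so this replicate block stayed in the fit. Symbols were updated through Entrez identifiers (GRCm38.p6), and lists took each gene's most complete probe. Genes were named by rule: among called genes with values on all 12 arrays, the 12 largest differences each way with 1 sign in all 6 pairs and the 5 largest changes over days each way, up to 6 called members of each list, all retinoid and Hox members, and Pou5f1, Nanog and Sox2. Members and lists were chosen with earlier results of these data known. Alternatives were no dye term, other normalizations and filters, and arrays or days left out. The number of arrays limits the precision.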

Additional observations from a re-analysis of the deposited data

Results flagged for a closer look

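Days were compared as groups under the same contrast, RA against DMSO, by a test of the difference between days (limma, adjusted over all probes), for 191 genes named by the rule. It was called for 53 genes between days 2 and 6 (adjusted p from 4.6e-07 to 0.048), with 31 increasing and 22 decreasing, and for 24 genes on day 4 against the mean of days 2 and 6 (adjusted p from 0.0012 to 0.046). Of all genes tested, 1.19% increased and 1.14% decreased from day 2 to day 6. On day 4 the shares were 0.233% upward and 0.308% downward. The 191 genes include those named for the largest called changes over days, so part of these counts was fixed by the choice of genes. Values are changes of the RA minus DMSO difference on the log2 scale. Groups of 2 arrays are too small to test for a single far sample.

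The largest increases from day 2 to day 6 were those of Rhox6 (3.77), Rhox9 (3.74), Lama1 (3.22), Fabp3 (3.20), Sct (3.11), Ndrg1 (2.57), Phlda2 (2.46), Lrat (2.36), Col4a1 (2.35) and Col3a1 (2.26). Next came Spink1 (2.19), Dppa2 (2.18), Dab2 (2.07), Dnmt3b (2.06), Tgfbi (2.02), Dlk1 (2.01), Smim7 (1.76), Twist1 (1.73), Dazl (1.68), Zfp42 (1.61) and Ttr (1.58). Smaller increases were called for Insig1 (1.45), Cdkn1c (1.43), Lamb1 (1.38), Col4a2 (1.27), Otx2 (1.24), Cebpb (1.20), Sohlh2 (1.16), Ccnd1 (1.15), Dppa5a (1.08) and Ooep (1.01). An increase can come from a gene that was higher in RA and went further, such as Rhox6, or from one that was lower and drew nearer to DMSO, such as Dnmt3b and Otx2.

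Decreases from day 2 to day 6 were called for Gbx2 (-3.15), Gbp2b (-3.03), Sp5 (-2.77), Lefty1 (-2.64), Sprr2b (-2.63), Nuak1 (-2.55), Slc2a3 (-2.49), Crabp1 (-2.29), Nrip1 (-2.04), Stmn2 (-1.93) and Vim (-1.87). Others were those of Col1a2 (-1.52), Hoxb5 (-1.45), Usp17lc (-1.45), Wdr7 (-1.40), Dhrs3 (-1.35), Tshz1 (-1.32), Cdh2 (-1.25), Efnb1 (-1.23), Pde11a (-1.19), Aldh1a2 (-1.16) and Flt1 (-1.05). Among them Crabp1, Nrip1, Dhrs3, Aldh1a2 and Hoxb5 are genes of the retinoid and Hox lists.

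On day 4 the difference was above the mean of the other days for Dkk1 (2.27), Fn1 (2.05), Gbx2 (1.86), Id2 (1.80), Id3 (1.80), H19 (1.67), Mest (1.62), Vim (1.59), Gap43 (1.53), Col3a1 (1.44), Tgfb2 (1.24), Smim7 (1.22), Cdkn2b (1.20) and Lef1 (1.15). It was below that mean for Chac1 (-2.18), Sfn (-1.89), Smyd1 (-1.88), Trib3 (-1.75), Asns (-1.69), Lefty1 (-1.62), Vegfa (-1.62), Dhrs3 (-1.20), Nanog (-1.16) and Psat1 (-1.10). Without the dye term 1 probe was called for this comparison, and the Cy5 array of DMSO day 4, with 11257 values, lies in it.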

How the results depend on the processing

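Without the replicate block (the dye term), 1031 probes were called for the mean over days in place of 3781, with 193, 250 and 283 on days 2, 4 and 6, 17 for the change from day 2 to day 6 and 1 for day 4 against the other days. Of 145 named values for the mean over days, which include the uncalled Sox2, 111 kept their status without it, called or not. The other 34 lost their call, and of 20 named changes over days 5 were still called. Fits on only the 12 RA and DMSO arrays gave 44 calls for day 4 against the other days. Quantile normalization gave 1139 calls on day 6 and 38 for day 4 against the others, and it moved the split of the change from day 2 to day 6 from 162 higher and 164 lower to 105 and 164. The mean over days gave 1773 calls without day 6. When single arrays were left out, the counts ranged from 2936 to 5384 for the mean, from 479 to 2057 on day 2, from 985 to 2574 on day 4, from 770 to 2769 on day 6, from 169 to 769 for the change to day 6 and from 30 to 304 for day 4 against the others. Direction reversed for Sox2 without day 4 (-0.14), Lrat without day 6 (-0.33), Ttr without day 6 (-0.08) and Foxa2 with its probes averaged (0.17); the averaging shows the cause for Foxa2, whose probes disagree, and single days set the other 3. Of 57 list genes with more than 1 probe, 4 were called in both directions (Flna, Foxa2, Sox11 and Top2a). The 2 arrays of each treatment and day limit the single-day tests.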

Other observations

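Of 38 cell cycle genes 8 were higher in RA (21.1%, against 14.3% of all genes tested) and 4 lower (10.5%, against 9.38%), averaged over days, with a median of -0.03. Without the dye term 4 were higher. The D-type cyclins Ccnd2 (1.51 ± 0.11, log2 ± SE) and Ccnd1 (1.35 ± 0.11) were higher, and so were inhibitors of cyclin-dependent kinases, Cdkn2b (1.36 ± 0.12) and Cdkn1a (0.97 ± 0.12), while another inhibitor, Cdkn1b, was lower (-0.76 ± 0.11). Ccnd2 lay between 1.42 and 2.57 on the RA arrays (median 2.09) and between 0.21 and 0.92 on the DMSO arrays (median 0.32), with no overlap. Myc was higher by 0.54 ± 0.10. The calls of Cdkn1b and Myc were lost without the dye term (adjusted p = 0.13 and 0.17).

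Of 25 genes of the amino acid and unfolded protein response 5 were higher (20%, against 14.3% of all genes tested) and 9 lower (36%, against 9.38%). The day medians of the list were 0.04, -0.72 and 0.32. The numbers higher and lower were 6 and 2 without day 4, 5 and 2 from the 6 matched differences, and 1 and 1 without the dye term. On day 4, 3 were higher and 12 lower, against 5.53% and 5.07% of all genes, and on day 6, 7 were higher, against 7.88%. Chac1, which degrades glutathione and is induced by amino acid shortage, was lower by -0.97 ± 0.13 (10 arrays), mostly on day 4 (-2.43), and Psat1, an enzyme of serine synthesis, by -0.85 ± 0.10. The Chac1 call was lost without day 4 (-0.26, adjusted p = 0.32) and without the dye term (-0.77, adjusted p = 0.19). Xbp1 (0.97 ± 0.15), a factor of the unfolded protein response, and Cebpb (0.71 ± 0.11) were higher, but neither call was kept without the dye term (adjusted p = 0.053 and 0.066). Without the sparse Cy5 array of DMSO day 4 the list had 5 genes higher and 6 lower over all days.

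Of 25 genes of DNA methylation and polycomb 8 were higher (32%, against 14.3% of all genes tested) and 6 lower (24%, against 9.38%). These counts were 4 and 7 with quantile normalization and 1 and 3 without the dye term. Over all 16640 probes tested without that term, 618 were higher and 413 lower. Beside Dnmt3b and Dnmt3l the polycomb genes Phc1 (-1.21 ± 0.17) and Cbx6 (-0.85 ± 0.11) were lower. Bmi1 (0.70 ± 0.12) and Mtf2 (0.71 ± 0.15) were higher, both called only with the dye term (adjusted p = 0.19 and 0.6 without). Of 24 genes of glycolysis and hypoxia 7 were higher (29.2%) and 6 lower (25%), or 7 and 1 without day 4 and 3 and 1 without the dye term. The lactate carrier Slc16a3 was lower by -1.09 ± 0.13 and the glucose carrier Slc2a3 was higher by 0.77 ± 0.12. The Slc2a3 difference was that of day 2, at 2.27, against 0.27 and -0.23 later, and was 0.02 without day 2 (adjusted p = 0.93). Of 19 cholesterol synthesis genes 3 were higher, a share (15.8%) near the 14.3% of all genes.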
